A study of Mus musculus with 12 samples.

Results

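The clustered protocadherins were taken as every gene whose symbol names a numbered alpha, beta or gamma protocadherin. This gave 58 of the 55357 genes in the count tables, with 14 alpha, 22 beta and 22 gamma genes. All lie on the plus strand of mouse chromosome 18 (GRCm39), with the alpha cluster at 37063237 to 37320714, the beta cluster at 37397991 to 37657532 and the gamma cluster at 37794846 to 37974926. RNA was measured by mRNA sequencing in cerebral cortex with hippocampal formation from mouse pups at postnatal day 5, dissected into a rostral and a caudal sample. The conditional knockout (cKO) pups carried Nestin-driven Cre, which acts in neural progenitors and their progeny, with both Egfr alleles floxed (EgfrF/F), and came from animals T3, T6 and T80. The control pups had 1 floxed allele (EgfrF/+), are also labelled WT, and came from animals T4, T8 and T70. The labels do not say whether controls carried Cre. Each animal gave a caudal and a rostral library, so each of the 4 groups holds 3 libraries, 1 from each animal.

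Clustered protocadherins are cadherin-like adhesion proteins of the neuronal surface, and cells that carry the same set recognise each other. Each alpha and gamma transcript joins a variable first exon, which has its own promoter and encodes the extracellular part, to constant exons that the whole cluster shares and that encode the end of the cytoplasmic part. Beta genes have no constant exons, so their proteins lack the shared cytoplasmic part. A neuron switches on a small and largely random choice of the alpha, beta, gamma-A and gamma-B genes, with CTCF and cohesin looping promoters to distant enhancers, whereas the C-type genes at the end of the alpha and gamma clusters are used more evenly across neurons. In the brain the family is known for dendrite self-avoidance, for axon spacing and, for the gamma cluster, for neuron survival.

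The libraries held 43810458 to 87170315 counts. Egfr, the targeted gene, had 5.82 to 14.6 CPM (counts per 1000000) in the 6 cKO libraries, against 39.1 to 48.9 CPM in the 6 control libraries. CPM values use library sizes scaled by the trimmed mean of M values (TMM) over the 12 libraries. The library labelled T6 rostral stood apart from its group, with a median deviation of 0.402 log2 units per gene and 8.18% mitochondrial counts, against 0.0922 to 0.246 and 1.85 to 3.98% in the other 11 libraries. Its 6 neuron markers summed to 9292 CPM and its 6 astrocyte markers to 469 CPM, against 6721 to 8079 CPM and 1067 to 1561 CPM elsewhere. The neuron marker Tubb3 went the other way, with 980 CPM against 1022 to 1895 CPM elsewhere. On a score built from the 2491 other genes that differed between regions in controls, where control rostral averages 0 and control caudal 1, the library labelled T3 rostral scored 0.855 and that labelled T3 caudal 0.563, the reverse of their labels. The libraries labelled T80 rostral and T80 caudal scored 0.639 and 0.811.

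Reads on the constant exons limit what the count of a single alpha or gamma gene shows. The 14 alpha genes share 2860 exonic bases and the 22 gamma genes 2116, next to 2346 to 4675 and 1570 to 5508 bases of their own. All 14 alpha counts and 21 or 22 gamma counts in each library were not whole numbers, and many members of a cluster had the same decimals, as equal division of a read among the genes it overlaps would give. The lowest gene was the same in all 12 libraries, Pcdha8 in the alpha and Pcdhgb8 in the gamma cluster, and its count is the most that any member can have received from reads on the exons common to the whole cluster. On that limit, reads on the common exons were at most 64.3 to 73.5% of the alpha counts and 47.8 to 52.8% of the gamma counts. The limit does not cover further bases that some gamma members share beyond the 2116 common ones. With those 2116 included, the shared bases came to 3154 for Pcdhgb1, 3157 for Pcdhga4, 2224 for Pcdhgb4 and 2227 for Pcdhga8. Pcdhb21 and Pcdhb22 share 455 bases, and 5 to 14 beta counts in each library were not whole. Folds of single alpha and gamma genes are therefore damped and move together, so each was also computed from the count above the lowest gene of its cluster. On the same strand 5 genes that are no members overlap exons of members. Gm37013 held 703.8 to 1132 counts and Gm38182 held 316.3 to 760.6, none of them whole, and they overlap 446 and at least 628 bases of each gamma gene, so part of the reads there may stand under these names. Gm37013 also overlaps 2410 bases of Pcdha4, and Gm38182 overlaps 1530 bases of Pcdhgc5. The levels of Pcdha4 and Pcdhgc5 over their own bases may therefore be understated. Opposite-strand genes overlap exons of 13 members; BC037039, with 122 to 361 counts, was whole in all 12 libraries, and Gm26672, with 100 to 264.5, was not whole in 2.

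Summed over its members, the gamma cluster was the most abundant, followed by the alpha and the beta cluster, in all 12 libraries. The gamma sum was 836.9, 1055 and 921.9 CPM in cKO caudal cortex (T3, T6, T80) and 889.1, 855.0 and 845.7 CPM in cKO rostral cortex. It was 1003, 942.2 and 954.5 CPM in control caudal cortex (T4, T8, T70) and 930.5, 877.7 and 871.9 CPM in control rostral cortex. In controls every caudal value lay above every rostral one, while cKO overlapped control in both regions.

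The alpha sum was 547.7, 470.7 and 499.2 CPM in cKO caudal cortex and 472.4, 657.7 and 530.0 CPM in cKO rostral cortex. It was 530.8, 524.1 and 514.1 CPM in control caudal cortex and 543.8, 561.1 and 530.5 CPM in control rostral cortex. With TMM scaling, the highest of the 12 was the library labelled T6 rostral, which also had the highest sum of the 6 neuron markers but the lowest Tubb3. These ranks depend on the scaling. On plain library totals the SD of the alpha sum in cKO rostral cortex fell from 94.8 to 33.8 CPM. That of the gamma sum rose from 22.8 to 100.3 CPM. The part of cell makeup in the alpha sum of T6 rostral was not tested. In bulk tissue, fewer cells of a type and less RNA per cell cannot be told apart.

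The beta sum was the lowest, at 233.2, 201.3 and 214.7 CPM in cKO caudal cortex and 223.9, 239.2 and 216.7 CPM in cKO rostral cortex. In controls it was 234.8, 237.1 and 229.0 CPM in caudal and 220.7, 231.7 and 216.9 CPM in rostral cortex. The cKO values overlapped the control values in both regions, with T6 and T80 below all controls in caudal cortex.

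**Figure D1:**
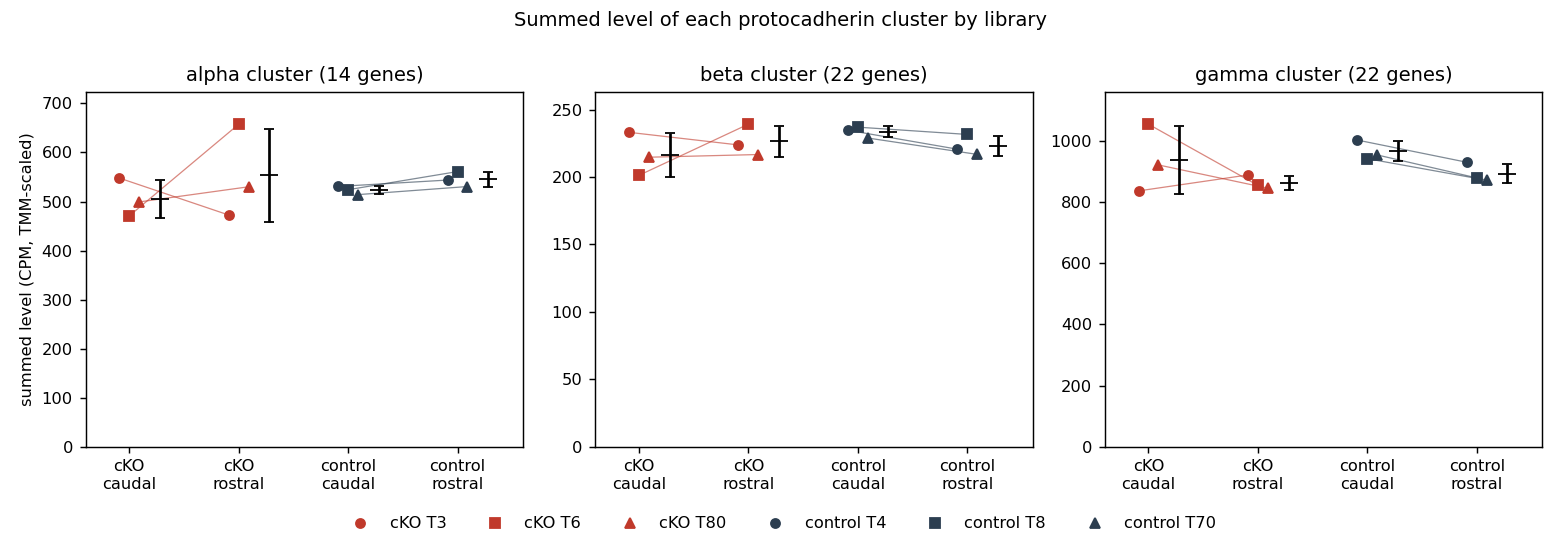
Summed level (CPM, TMM-scaled) of the 14 alpha, 22 beta and 22 gamma genes in each library, with cKO in red and control in dark blue; lines join the caudal and rostral library of an animal and bars show the mean and SD of 3 libraries. The control lines are nearly parallel, and the lines of T3 and T6 run in opposite directions in each cluster.

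Within the clusters, levels differed widely once the count of the lowest gene was taken off and values were set per kilobase of a gene's own bases. In the gamma cluster, Pcdhgc3, a C-type isoform known for shaping dendrites and astrocytes, led with a mean of 37.4 CPM per own kilobase over 12 libraries, followed by Pcdhga11 at 16.8 and Pcdhgc4 at 12.3. Pcdhgb5 had 1.08, the lowest after Pcdhgb8, which is 0 by construction. Whole counts per kilobase of full length put Pcdhgc3 first as well, at 26.9 CPM per kilobase, and Pcdhgb5 last, at 3.92. Pcdhgb5 had 23.7, 32.4 and 26.2 CPM in cKO caudal cortex and 25.7, 22.8 and 24.3 CPM in cKO rostral cortex.

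In the alpha cluster, Pcdhac2, a C-type isoform known for the spacing of serotonergic axons, stood at 17.2 CPM per own kilobase, and Pcdha12 at 8.02 and Pcdha5 at 7.34 came next. Pcdhac1, the other alpha C-type gene, stood at 0.89 and was the lowest after Pcdha8. Pcdha8 as deposited had 26.0, 22.7 and 23.3 CPM in cKO caudal, 22.9, 34.5 and 24.3 CPM in cKO rostral, 24.8, 24.5 and 24.0 CPM in control caudal and 25.9, 25.8 and 24.9 CPM in control rostral cortex, with T6 rostral the highest. In level, the C-type genes thus ran from the highest of their clusters to near the lowest. Pcdhgc5, an isoform that appears late in postnatal life, stood at 1.68, rank 19 of the 22 gamma genes.

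The beta genes ran from 0.03 CPM per kilobase for Pcdhb1 to 5.27 for Pcdhb20, with Pcdhb17 at 4.70, Pcdhb7 at 4.18 and Pcdhb9 at 4.17. Pcdhb1 had 0 to 0.149 CPM in the 12 libraries and was the only member below the filter on low counts, so 57 of the 58 were tested. Beta genes nearer the gamma cluster tended to be higher, with a Spearman correlation of 0.545 between gene order and level over 22 genes, against 0.174 over 14 alpha and 0.0615 over 22 gamma genes. These genes were measured in the same libraries, and the correlations are descriptions.

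**Figure D2:**
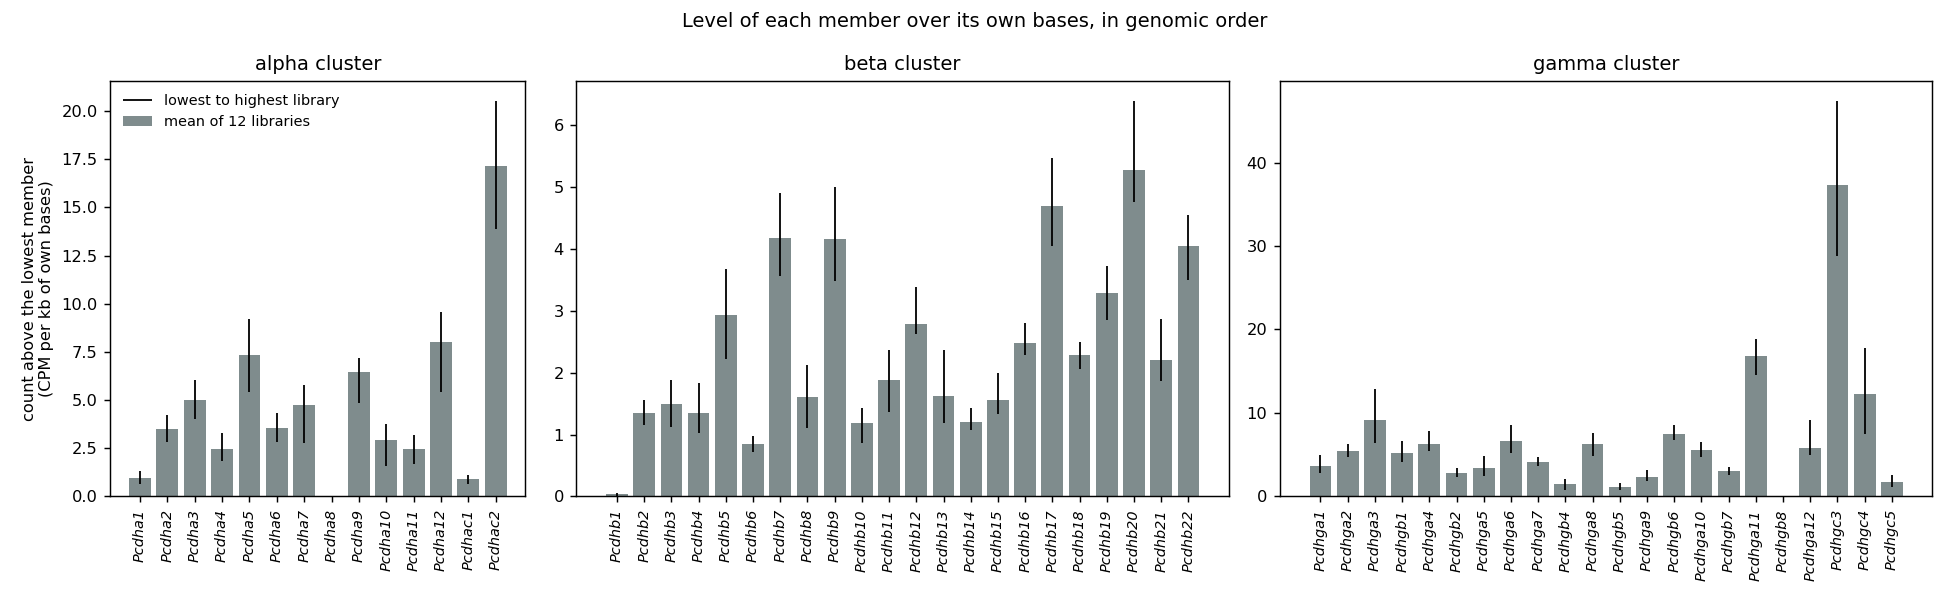
Count above the lowest gene of the same cluster, as CPM per kilobase of bases that no other member shares, for each gene in genomic order; bars are means of 12 libraries and lines run from the lowest to the highest library. Pcdhac2, Pcdhga11 and Pcdhgc3 stand above their neighbours, Pcdhgc4 lies between Pcdhgc3 and the lower Pcdhgc5, and Pcdhb1, Pcdha8 and Pcdhgb8 are at or near 0.

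The C-type genes showed how far single members moved between libraries. Pcdhgc3 had 124.4, 184.9 and 152.4 CPM in cKO caudal cortex, 147.1, 115.8 and 125.1 CPM in cKO rostral cortex, 165.5, 157.8 and 157.8 CPM in control caudal cortex and 148.4, 145.1 and 147.8 CPM in control rostral cortex. Controls did not overlap between regions, and cKO spread beyond them on both sides in caudal cortex.

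Pcdhgc4, an isoform needed for the survival of cortical interneurons in mice, had 63.6, 64.6 and 63.0 CPM in cKO caudal cortex and 64.2, 44.6 and 62.9 CPM in cKO rostral cortex. It had 84.8, 69.2 and 67.3 CPM in control caudal cortex and 67.5, 57.7 and 59.4 CPM in control rostral cortex. All 3 cKO caudal values lay below all 3 control caudal values, by a margin smaller than the range within the controls.

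Pcdhgc5 had 26.9, 38.5 and 29.3 CPM in cKO caudal cortex, 28.7, 26.4 and 26.7 CPM in cKO rostral cortex, 37.2, 30.5 and 33.0 CPM in control caudal cortex and 34.4, 27.6 and 28.8 CPM in control rostral cortex. Pcdhac2 had 73.7, 74.9 and 73.5 CPM in cKO caudal cortex, 64.9, 96.7 and 78.6 CPM in cKO rostral cortex, 78.1, 74.2 and 75.8 CPM in control caudal cortex and 80.4, 82.6 and 74.2 CPM in control rostral cortex. Pcdhac1 had 28.3, 25.03 and 26.0 CPM in cKO caudal cortex, 24.7, 36.4 and 26.8 CPM in cKO rostral cortex, 26.8, 27.2 and 26.6 CPM in control caudal cortex and 27.5, 28.6 and 27.1 CPM in control rostral cortex. For these genes the groups overlapped, and the library labelled T6 rostral held the highest value of both alpha genes.

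**Figure D3:**
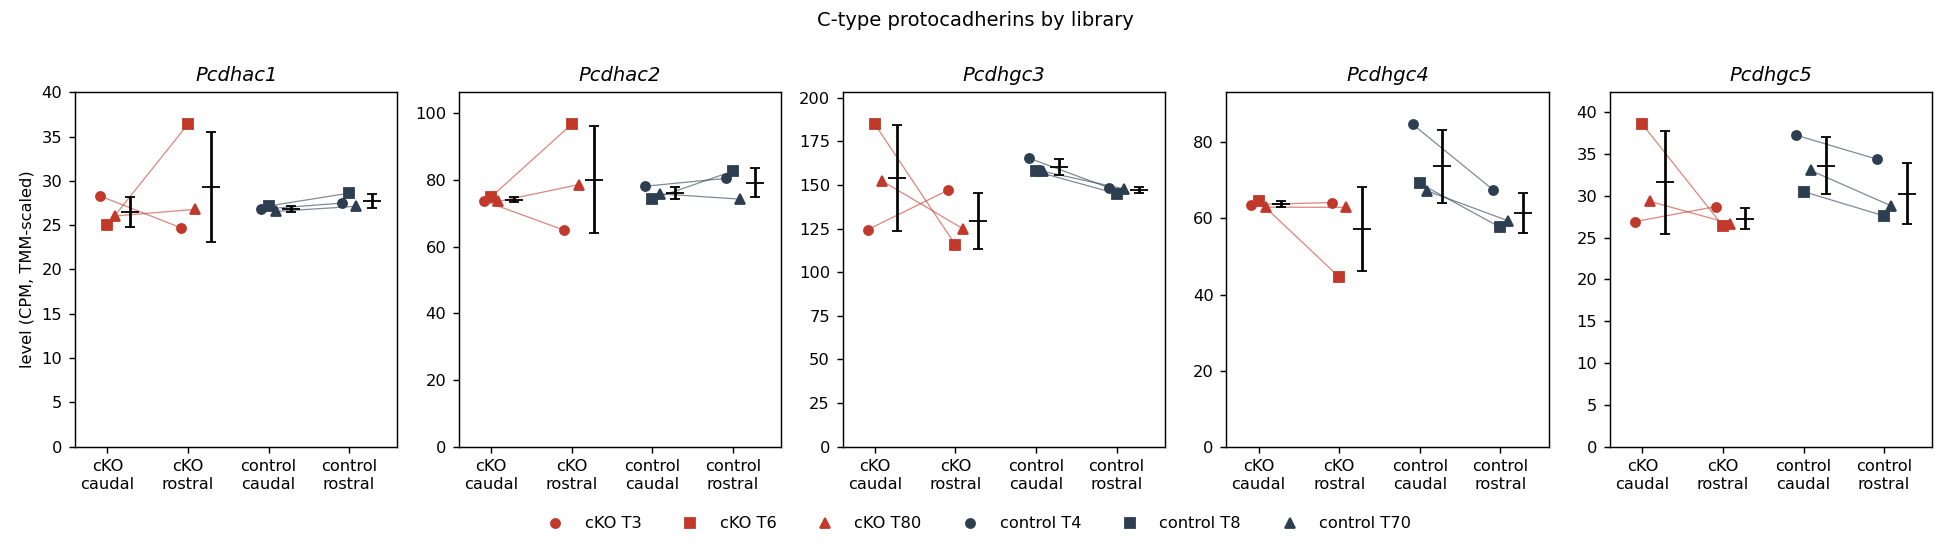
Level (CPM, TMM-scaled) of the 5 C-type genes in each library, with cKO in red and control in dark blue; lines join the libraries of an animal and bars show the mean and SD of 3 libraries. Pcdhgc3, Pcdhgc4 and Pcdhgc5 were higher in caudal than in rostral cortex in all 3 control animals, like most gamma genes. The cKO animals differed in direction.

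Loss of Egfr was compared with control in each region and after summing the 2 libraries of an animal. None of the 57 members passed in any of the 3 comparisons (edgeR quasi-likelihood test, Benjamini-Hochberg adjusted p under 0.05). Egfr itself did not pass in rostral (log2 fold change -2.14, edgeR adjusted p = 0.186) or caudal cortex (-2.05, edgeR adjusted p = 0.102). It passed in the sums (-2.10, edgeR adjusted p = 0.0019). The tests by region therefore missed a change of that size in Egfr, whose SE was 0.25 in rostral and 0.31 in caudal cortex. The median SE of a member was smaller, at 0.12 and 0.10, so Egfr does not set the size that could be seen in a member. The share of all tested genes that passed was 0% in rostral cortex, 0.0821% in caudal cortex and 0.179% for the sums. At an unadjusted p under 0.05, 1 member was lower in cKO in rostral cortex, 3 in caudal cortex and 1 in the sums, and none was higher. Of all genes, 3.98%, 6.86% and 7.15% were lower at that limit and 5.51%, 7.65% and 8.24% higher. DESeq2 called no member in the 3 comparisons, against 1.78%, 2.57% and 3.44% of all genes, and the count above the lowest gene gave none either. Without T6, whose rostral library stood apart, edgeR called no member, against 5.01%, 0.768% and 2.92% of all genes.

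Sizes were small. The median log2 fold change in rostral cortex was 0.04 over 14 alpha, 0.05 over 21 beta and -0.02 over 22 gamma genes, with a median over all 20599 genes tested of 0.04. In caudal cortex the medians were -0.04, -0.10 and -0.04, with 0.00446 over 20705 genes. From the count above the lowest gene, the alpha and gamma directions in rostral cortex turned round. The alpha median was then -0.11, with 2 of 13 genes above 0, against 10 of 14 as deposited, and the gamma median 0.11, with 14 of 21 above 0, against 8 of 22 as deposited. In caudal cortex these medians were -0.10 for alpha and -0.08 for gamma genes. In rostral cortex 32 of the 57 members were above 0, against 55.6% of all genes, in caudal cortex 13 of 57, against 50.9%, and in the sums 16 of 57, against 53%. Plain library totals shift all genes by -0.05 in rostral and -0.01 in caudal cortex. The median standard error of a member was 0.12 in rostral and 0.10 in caudal cortex.

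From the counts as deposited, where shared reads damp alpha and gamma folds, the members with the smallest p were mostly beta genes. From the count above the lowest gene, the widest fold in rostral cortex was that of Pcdha10. Its log2 fold change was -0.55 (SE 0.24, edgeR adjusted p = 0.527). The values that follow are as deposited. Pcdhb13 had 5.76, 4.57 and 5.60 CPM in cKO caudal cortex, against 8.60, 8.81 and 5.88 CPM in control caudal cortex. The values did not overlap, but 1 control stood close to cKO, and the log2 fold change of -0.55 (SE 0.18) had an adjusted p of 0.262 (edgeR). In rostral cortex Pcdhb13 had 4.41, 5.82 and 5.90 CPM in cKO and 6.84, 5.80 and 4.42 CPM in control, which overlapped almost fully.

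Pcdhb11 had 6.99, 6.03 and 6.93 CPM in cKO rostral cortex, against 8.08, 9.73 and 7.93 CPM in control rostral cortex. In caudal cortex it had 9.07, 7.46 and 8.34 CPM in cKO and 9.66, 10.4 and 8.89 CPM in control. All rostral cKO values were below all rostral controls, and the caudal values overlapped at T3 and T70. The log2 fold change was -0.36 (SE 0.15) in rostral cortex, with an edgeR adjusted p of 0.517, and -0.32 (SE 0.11) for the sums, with an edgeR adjusted p of 0.272.

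In caudal cortex, Pcdhb8 had 3.87, 5.78 and 4.86 CPM in cKO and 6.16, 5.91 and 7.38 CPM in control. Its difference was -0.41 on the log2 scale (SE 0.17, edgeR adjusted p = 0.321). Pcdhb3 had 5.66, 4.26 and 5.41 CPM in cKO and 6.00, 6.22 and 7.15 CPM in control, which gave -0.33 on the log2 scale (SE 0.14, edgeR adjusted p = 0.338). Both sets of values were separate, in each case by less than the spread within a group. In rostral cortex, Pcdhgc3 and Pcdhga6 had log2 fold changes of -0.18 (SE 0.11) and -0.17 (SE 0.11), with edgeR adjusted p of 0.574 and 0.580.

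Counting members whose 3 cKO values all lay below the 3 control values gave 2 in rostral cortex (Pcdhb6 and Pcdhb11), 6 in caudal cortex (Pcdhb3, Pcdhb8, Pcdhb13, Pcdhb15, Pcdhb20 and Pcdhgc4) and 4 in the sums (Pcdha7, Pcdhb11, Pcdhb22 and Pcdhgc3). Over all tested genes such separation held for 10.8%, 11.7% and 13.3%, which is above the share of members in each comparison. No member was separate in the higher direction, where the shares of all genes were 8.98%, 11% and 12.7%.

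**Figure D4:**
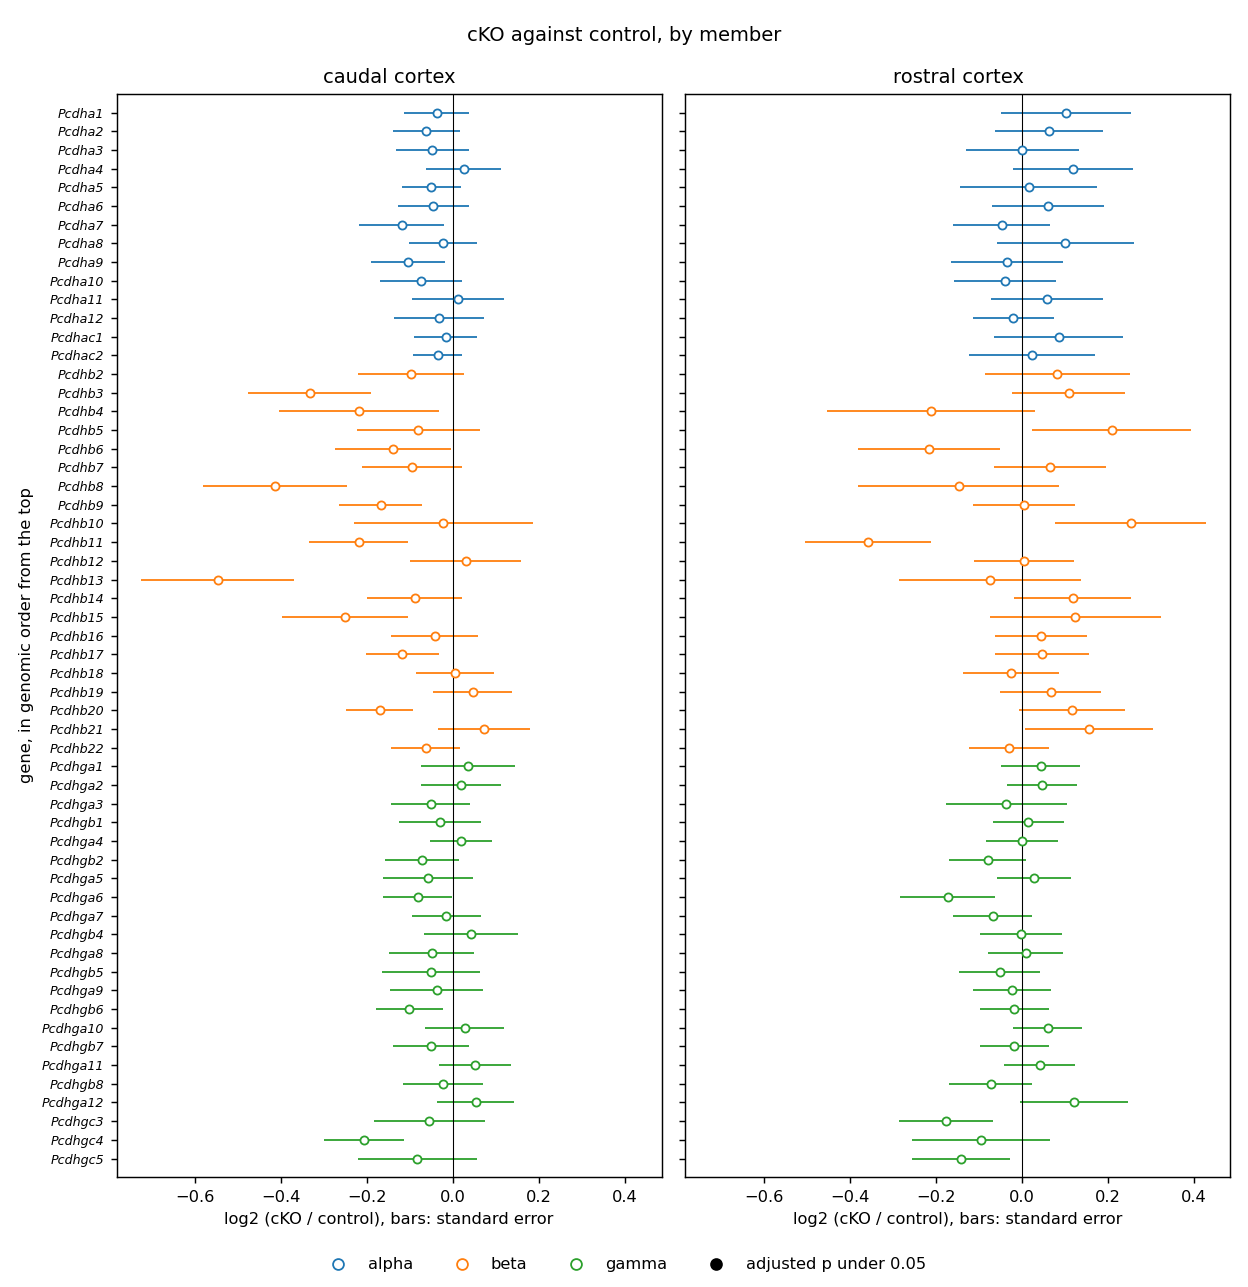
Log2 fold change of cKO over control for the 57 tested members in genomic order, in caudal and in rostral cortex; bars are standard errors, colours mark the clusters and a filled point would mark an adjusted p under 0.05. No point is filled, and from the counts as deposited the widest departures are among the beta genes. From the count above the lowest gene, the widest in rostral cortex was Pcdha10 (-0.55), against -0.36 for Pcdhb11. In caudal cortex the widest was still Pcdhb13 (-0.55).

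Caudal and rostral cortex were next compared within each genotype. In controls the gamma sum was slightly higher in caudal cortex, and the alpha sum slightly lower with TMM scaling but not on plain library totals. The log2 ratio of caudal to rostral alpha sums was -0.03 in T4, -0.10 in T8 and -0.05 in T70, and that of gamma sums was 0.11, 0.10 and 0.13. On plain library totals every gene shifted by 0.07 toward caudal in controls and 0.11 in cKO, so the mean alpha difference of -22.2 CPM turned round there and was 4.18 CPM. The ratio of gamma to alpha sums, which no scaling touches, was 1.89, 1.80 and 1.86 in caudal and 1.71, 1.56 and 1.64 in rostral cortex of T4, T8 and T70, without overlap.

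By gene, 1 of the 57 members passed in controls (edgeR adjusted p under 0.05), against 12.2% of all genes tested. This was Pcdhb9, a beta isoform at 37533908 to 37536962, which shares no bases with another member. It had 14.4, 15.3 and 14.6 CPM in control caudal cortex, against 11.9, 12.1 and 10.6 CPM in control rostral cortex. The values were far apart compared with their spread, and Pcdhb9 was higher in caudal cortex by 0.36 log2 units (SE 0.08, edgeR adjusted p = 0.0124). With any 1 of the 3 control animals left out, the adjusted p (edgeR) was 0.0578 to 0.0919, and no member passed. DESeq2 called 3 members, Pcdhb5, Pcdhb9 and Pcdhgc4, against 13.5% of all genes.

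Because both libraries came from the same animal, the fit with the animal as a block bears on these values. With this block 5 members passed, all higher in caudal cortex, against 15.4% of all genes: Pcdhb5 (0.33), Pcdhb7 (0.22), Pcdhb9 (0.36), Pcdhb13 (0.45) and Pcdhgc4 (0.26), given as log2 fold changes. Their adjusted p (edgeR with the animal block) ran from 0.00789 for Pcdhb9 to 0.0485 for Pcdhb7. Pcdhb5 had 10.4, 12.5 and 11.1 CPM in control caudal cortex, against 9.27, 9.94 and 7.86 CPM in control rostral cortex, and it missed the threshold without the block (edgeR adjusted p = 0.0718).

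Taking off the count of the lowest gene brought in gamma genes. From the count above the lowest gene, 3 of 55 members passed without the block, against 12.2% of all genes. These were Pcdhb9, Pcdhgb5 and Pcdhgb6, and with the block 9 passed, the other six being Pcdhb5, Pcdhb7, Pcdhb13, Pcdhga8, Pcdhgc4 and Pcdhgc5, against 15.4% of all genes. Pcdhgb5 had 29.1, 27.9 and 28.5 CPM as deposited in control caudal cortex, against 26.5, 24.8 and 24.6 CPM in control rostral cortex. Its log2 fold change was 0.17 (SE 0.06, edgeR adjusted p = 0.0716) as deposited and 0.50 above the lowest gene (edgeR adjusted p = 0.0197).

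The clusters differed in sign across their members. In controls 0 of 14 alpha, 16 of 21 beta and 21 of 22 gamma genes were above 0, against 50.9% of all genes, with medians of -0.05, 0.12 and 0.11 and a median of 0.00427 over all 20461 genes; the shift of 0.07 on plain totals exceeds the alpha median. Of the gamma genes 17 were higher in caudal cortex in 3 of 3 animals, as were 11 beta genes and no alpha gene, and 11 alpha and 4 beta genes were lower in 3 of 3. These 28 higher and 15 lower members made up 49.1% and 26.3% of the 57, against 25.5% and 23.8% of all genes. All caudal values lay above all rostral values for 5 beta and 11 gamma genes, against 16.3% of all genes, and below them for Pcdha5, Pcdha8, Pcdhb18 and Pcdhb22, against 15.1%. Shared reads tie the alpha genes to each other and the gamma genes likewise, so the counts within these clusters are not independent; above the lowest gene, 4 of 13 alpha and 17 of 21 gamma genes were above 0.

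Some markers differed between the same control libraries. The 6 neuron markers summed to 6959 to 7033 CPM in control caudal and 7478 to 8079 CPM in control rostral cortex, and the 6 astrocyte markers to 1422 to 1506 and 1201 to 1384 CPM. The 6 hippocampus markers summed to 360.6 to 437.6 and 250.6 to 278.2 CPM, and the 6 meningeal fibroblast markers to 287.4 to 354.4 and 110.6 to 256.4 CPM. The 6 choroid plexus markers summed to 8.76 to 213.7 CPM in control caudal and 3.10 to 4.90 CPM in control rostral cortex. The 6 interneuron markers summed to 282.7 to 368.8 CPM in control caudal and 215.4 to 279.8 CPM in control rostral cortex, and the 6 markers of the oligodendrocyte lineage to 396.2 to 455.8 and 475.2 to 493.6 CPM. Not every marker followed its sum. Of the interneuron markers, Dlx1 had 30.9 to 31.8 CPM in control caudal and 38.6 to 46.2 CPM in control rostral cortex. Npy had 23.9 to 26.2 and 29.98 to 32.05 CPM. The astrocyte marker Aldh1l1 had 74.5 to 85.7 CPM in control caudal and 90.7 to 99.8 CPM in control rostral cortex. No marker in these lists was at 0 in all libraries, and the part of these cells in the differences of the members was not tested.

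In cKO no member passed between regions (edgeR), against 0% of all genes tested. None had an unadjusted p under 0.05, against 0.668% of all genes higher and 0.993% lower at that limit, and DESeq2 called none, against 0.0051% of all genes. The smallest p belonged to Pcdhb11, with 9.07, 7.46 and 8.34 CPM in cKO caudal cortex, against 6.99, 6.03 and 6.93 CPM in cKO rostral cortex. These values did not overlap, as held in this direction for no other member and for 2.59% of all genes, and 0 members against 3.08% of all genes were separate in the lower direction. The log2 fold change was 0.31 (SE 0.15, edgeR adjusted p = 0.9999). Pcdhb21 had a log2 fold change of -0.28 (SE 0.16) and Pcdhb22 of -0.19 (SE 0.11), both with an edgeR adjusted p of 0.9999.

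Pcdhb9 had 14.6, 12.1 and 12.7 CPM in cKO caudal cortex, against 12.3, 10.9 and 11.4 CPM in cKO rostral cortex. It was higher in caudal cortex in 3 of 3 cKO animals, like Pcdhb11, Pcdhga3, Pcdhga6 and Pcdhga11, and Pcdhb3, Pcdhb14, Pcdhb18, Pcdhb21 and Pcdhga12 were lower in 3 of 3. Each set is 8.77% of the members, against 10% and 11.1% of all genes.

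The cKO animals did not move together. For T3, T6 and T80 the log2 ratio of caudal to rostral gamma sums was -0.09, 0.30 and 0.12, and the same ratio of alpha sums was 0.21, -0.48 and -0.09. The ratio of gamma to alpha sums was 1.53, 2.24 and 1.85 in caudal and 1.88, 1.30 and 1.60 in rostral cortex, so T6 and T80 ran the way of the 3 controls and T3, whose libraries went against their labels, ran the other way. All 14 alpha genes were below 0 with 3 cKO animals (median -0.13) and without T3 (median -0.30), and all 14 were above 0 without T6 (median 0.07). Of the gamma genes 21 of 22 were above 0 with 3 animals and without T3, and 14 of 22 without T6. From the count above the lowest gene, 8 of 13 alpha genes (median 0.03) and 13 of 21 gamma genes (median 0.03) were above 0 with 3 animals, so the alpha sign did not hold. Of all members 28 of 57 were above 0 with 3 animals, against 45.7% of all genes. The 6 choroid plexus markers summed to 225.8, 544.1 and 156.1 CPM in cKO caudal and 391.2, 1.16 and 11.1 CPM in cKO rostral cortex; the part of these cells in the spread of the members was not tested. With the region labels of T3 exchanged, the medians were -0.26 for alpha and 0.17 for gamma genes, and no member passed.

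**Figure D5:**
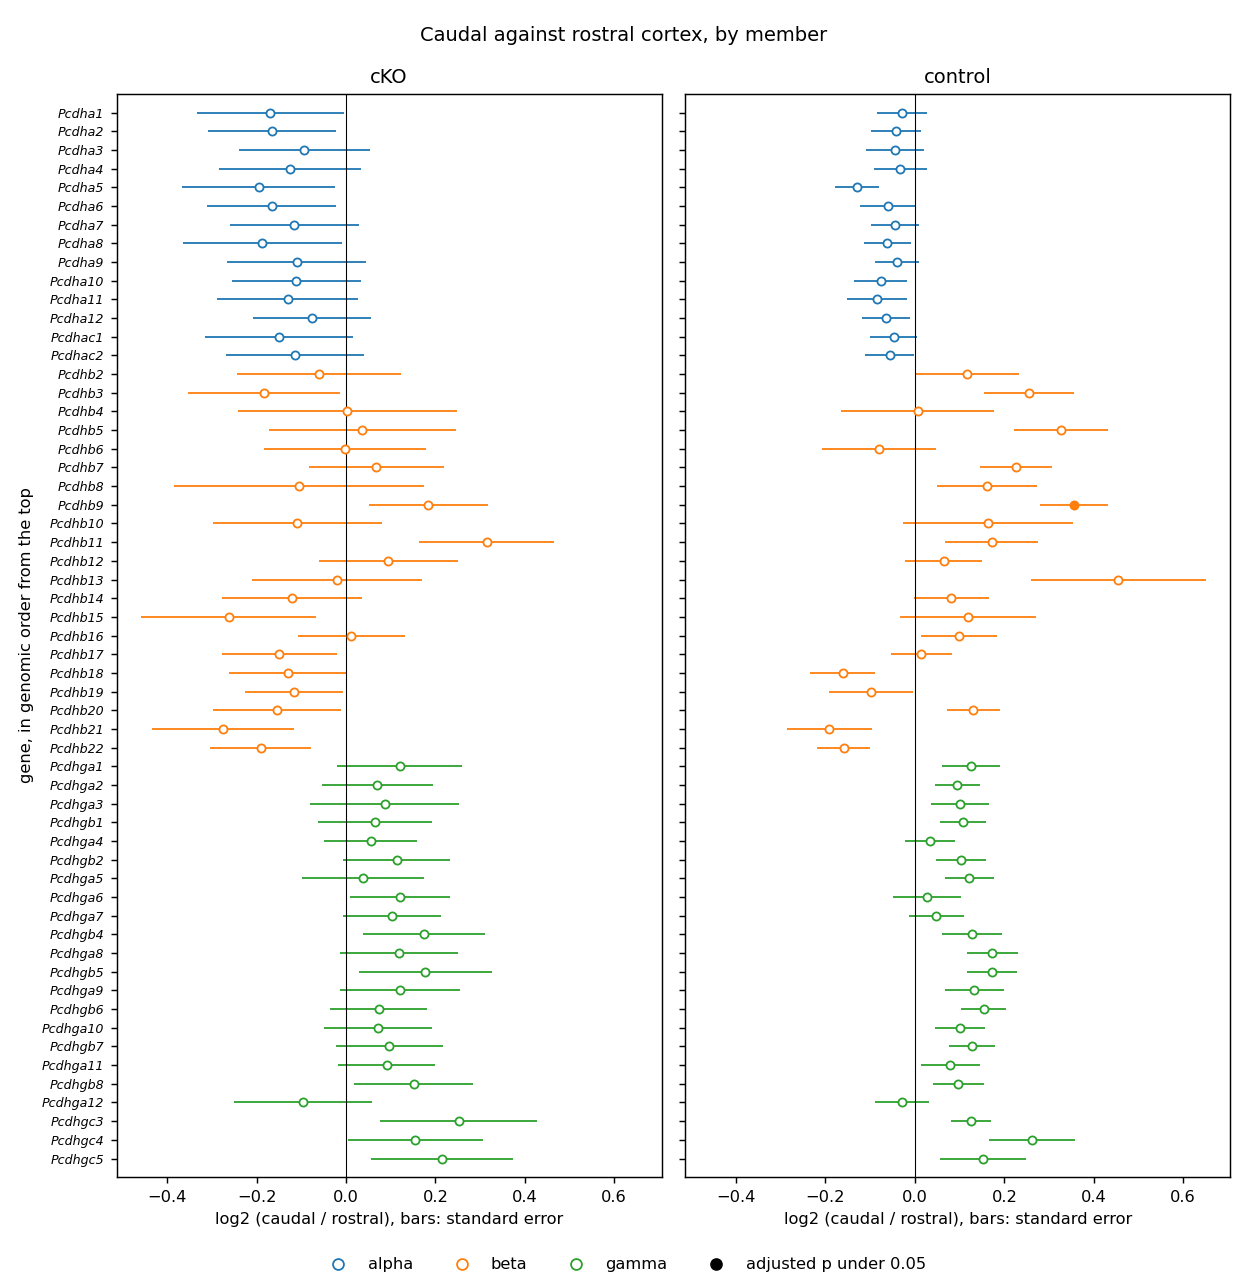
Log2 fold change of caudal over rostral cortex for the 57 tested members in genomic order, in cKO and in control; bars are standard errors, colours mark the clusters and the filled point marks an adjusted p under 0.05. From the counts as deposited with TMM scaling, alpha genes sit below 0 and nearly all gamma genes above it in both panels (plain totals turn the control alpha sum round, and the count above the lowest gene the cKO alpha median), with wider bars in cKO, and Pcdhb9 in control is the filled point.

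Whether the genotype effect differed between regions was tested over all 12 libraries. No member passed (edgeR), against 0% of all genes, and DESeq2 called none, against 0.0641%. Without T6 none passed either, against 2.17% of all genes. The 1 member with an unadjusted p under 0.05 (1.25% of all genes were higher and 2.3% lower at that limit) was Pcdhb3, whose genotype effect in caudal minus that in rostral cortex was -0.44 log2 units (SE 0.19, edgeR adjusted p = 0.9997). Pcdhb20 followed with -0.28 (SE 0.15) and Pcdhb13 with -0.47 (SE 0.29), at the same edgeR adjusted p. Pcdhb20 had 18.7, 17.1 and 16.9 CPM in cKO caudal, 18.5, 22.8 and 17.3 CPM in cKO rostral, 20.5, 19.6 and 19.3 CPM in control caudal and 18.4, 18.4 and 17.6 CPM in control rostral cortex, with the caudal genotypes separate and the rostral ones overlapping. In all 14 of the 57 members were above 0, against 44.4% of all genes.

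Genes that act on the clusters were followed as lists. Of 11 genes for CTCF and cohesin, 12 for methylation and silencing and 19 for binding partners and effectors, all 42 were tested and none passed between genotypes in rostral or caudal cortex or in the sums (edgeR). The medians of the CTCF and cohesin list were 0.20 in rostral and 0.17 in caudal cortex, those of the methylation list 0.14 and 0.11, and those of the partners -0.01 and 0.01, beside 0.04 and 0.00446 over all genes. Stag1, a subunit of the cohesin ring, had 66.4, 72.0 and 68.9 CPM in cKO caudal cortex, against 55.5, 56.4 and 52.0 CPM in control caudal cortex, without overlap. Its log2 fold change was 0.34 (SE 0.07, edgeR adjusted p = 0.120), and 0.25 (SE 0.09, edgeR adjusted p = 0.468) in rostral cortex.

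Tet2, an enzyme of DNA demethylation, had 27.5, 32.2 and 26.9 CPM in cKO caudal cortex, against 22.3, 19.5 and 19.4 CPM in control caudal cortex. The values were separate, with a log2 fold change of 0.50 (SE 0.10, edgeR adjusted p = 0.130). In the sums the log2 fold changes were 0.29 for Stag1 and 0.52 for Tet2 (edgeR adjusted p of 0.119 and 0.173). DESeq2 called both in caudal cortex, with adjusted p of 0.00632 and 0.00287. Ret, a receptor kinase that binds protocadherins, had a log2 fold change of -0.37 (SE 0.13) in rostral cortex, with an edgeR adjusted p of 0.455. It was -0.43 (SE 0.15, edgeR adjusted p = 0.280) in caudal cortex and -0.39 (SE 0.10, edgeR adjusted p = 0.183) in the sums.

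Between regions in controls, none of the 42 passed as higher in caudal cortex (edgeR adjusted p under 0.05). Some had log2 fold changes above 0 without passing, such as Axin1 (0.13) and Wasf1 (0.12). Passing as lower were 1 of 11 CTCF and cohesin genes, 2 of 12 for methylation and silencing and 3 of 19 partners and effectors. Of all genes, 12.2% passed in that comparison, in either direction, so such calls say nothing about the lists. Abi2, a subunit of the WAVE actin regulator, fell by 0.24 log2 units (SE 0.05, edgeR adjusted p = 0.0101), with 387.2, 378.2 and 368.4 CPM in control caudal cortex, against 425.6, 465.7 and 448.8 CPM in control rostral cortex. Ptk2b, a kinase that protocadherin cytoplasmic parts inhibit, fell by 0.43 (SE 0.09, edgeR adjusted p = 0.0131). Cyfip2, also of the WAVE complex, fell by 0.20 (SE 0.04, edgeR adjusted p = 0.0155), and Tet2 by 0.37 (SE 0.09, edgeR adjusted p = 0.0310). Pds5a, a cohesin regulator, also fell, with an edgeR adjusted p of 0.0480. In cKO none of the 42 passed (edgeR), with the smallest p for Tet2 (log2 fold change -0.39). None passed for the interaction, where Ptk2b (0.35) and Wasf1 (-0.29) had the smallest p.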

How the data were processed

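Per the submitters' processing notes, reads were aligned with STAR 2.7.8a to GRCm39 and counted with featureCounts 2.0.3; how strand and overlaps were handled is not stated there or in the labels. The deposited values are estimated counts per gene, of which 9.69 to 14.3% per library are not whole, and they were rounded before tests. Members, gene lists and rules for named genes were chosen with earlier results of these data known: values are given for the 5 C-type genes, the highest and lowest gene of each cluster, called members or up to 3 with the smallest p, and list genes by the same kind of rule. Tests used edgeR 4.0.16 (TMM, filterByExpr, robust quasi-likelihood F test, Benjamini-Hochberg over all genes tested, threshold 0.05) on the libraries of each comparison, in R 4.3.3, checked on simulated counts. Standard errors are the fold change over the square root of F. Each animal gave both regions, which pairs the libraries; same-animal deviations correlated at 0.248 to 0.333 in controls and 0.0305, -0.00304 and 0.461 in T3, T6 and T80. Alternatives included DESeq2 1.42.0, limma 3.58.1, size factors, no filter, the animal block, sex and each animal left out. Sex was read from Xist against Y-linked counts. The cKO animals were 1 female and 2 males and the controls 2 females and 1 male, so sex was not balanced between genotypes. Sums over a cluster were given no test. Sequences of these genes, and the values of 1 list gene, are not reported here.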

Additional observations from a re-analysis of the deposited data

How the results depend on the processing

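No member passed in the 3 genotype comparisons, in cKO between regions or for the interaction under any alternative run. In controls between regions, 1 member passed; with the animal (replicate block) 5 passed, above the lowest gene 3, above the lowest gene with the replicate block 9, with DESeq2 3, with no filter 4, in 1 fit over all 12 libraries 0, and with an animal left out 0 in each case. The block changed no other count of members. The count above the lowest gene, with and without the block, and the exchanged labels of T3 were chosen after seeing the data. On plain library totals the caudal minus rostral difference of summed CPM moved by more than 1 SD to 4.18 for alpha (from -22.2), 22.0 for beta (from 10.5) and 119.8 for gamma (from 73.2) in controls, and to 6.86 for beta (from -10.2) in cKO. Of 412 alternative values for 32 named gene results, 378 stayed on the same side of the threshold, 16 lost and 18 gained the call, and 0 reversed. Counts over all genes varied more. Genotype calls in rostral cortex were 0, against 372 with DESeq2, 45 with no filter, 101 in the fit over 12 libraries and 1058 without T6. In caudal cortex they were 17, against 476 with DESeq2, 326 with no filter, 455 with T3 exchanged, 2 with sex as a term and 0 to 162 with an animal left out. In the sums they were 41, against 752 with DESeq2, 320 with no filter, 101 with limma over 12 libraries, 1 with sex as a term and 1 to 685 with an animal left out. Between regions in controls they were 2492, against 78 in the fit over 12 libraries and 1079 to 1690 with an animal left out, and for the interaction 0, against 14 with DESeq2 and 475 without T6. With 3 animals a group, the median standard error of a member was 0.06 between regions in controls and 0.15 in cKO, which limits what could be seen.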
